A study of Mus musculus with 2 samples.

Results

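Hnf4a, Cebpa, Cebpb, Foxa2, Foxa3, Nr1i2, Nr1i3, Prox1 and Nr5a2 encode transcription factors that set the gene expression program of hepatocytes, and they were taken by name as 9 of the 31053 genes of a single cell RNA-seq table of mouse liver. For each of them, UMIs (unique molecular identifiers, each standing for 1 captured RNA molecule) were counted per class of cell barcode and by the Malat1 level of hepatocyte-like barcodes. The table holds 2 libraries, 1 per genotype. The control library came from C57BL/6 LaptTA mice without the YAP transgene, and the tetYAP_4W library from C57BL/6 mice that carried LaptTA together with tetYAP, a transgene for a constitutively active form of the transcriptional coactivator YAP. In both, the tetracycline transactivator was driven in hepatocytes by the LAP promoter, and hepatocytes were isolated by liver perfusion. The tetYAP_4W mice were raised on doxycycline food, which keeps the transgene silent, and were moved to regular diet at 4 weeks of age for 4 weeks of induction, and the schedule of the control animals of this experiment was not given in the sources used here. The number of animals behind each library was not given in the sources used here, and no library has a replicate, so no test between the genotypes was possible. Intervals below are 95% intervals of the counts and cover counting error only.

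HNF4A is a nuclear receptor that binds as a homodimer and activates a large part of the hepatocyte program, including apolipoprotein and coagulation factor genes. C/EBPα (Cebpa) and C/EBPβ (Cebpb) are basic leucine zipper factors that bind the same sites, the first associated with quiescent, metabolically active liver and the second with the acute phase response and regeneration. FOXA2 and FOXA3 are forkhead factors, of which FOXA2 can open closed chromatin, while the nuclear receptors PXR (Nr1i2) and CAR (Nr1i3) sense xenobiotics and induce detoxification enzymes. PROX1 is a homeodomain protein needed for hepatocyte differentiation that can act as a corepressor of nuclear receptors, and NR5A2 (LRH-1) regulates bile acid and cholesterol genes. Malat1 is a long noncoding RNA that stays in the nucleus, so that a barcode with many Malat1 UMIs holds much nuclear RNA.

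The promoters of the members whose counts the results turn on are given first. They are the 250 bases before the annotated start, taken from RefSeq for build GRCm38.p6, for which all 9 members matched with 14 starts. The windows of Cebpa and Foxa3 are shown because these 2 members had the lowest tetYAP_4W over control ratios, that of Nr1i3 because its level differed most between Malat1-rich and Malat1-poor barcodes, and the second start of Hnf4a because Hnf4a is the common partner in the ratios between members. Each is written 5′ to 3′ on the strand of its gene, and capitals mark matches to 8 short motifs searched on both strands.
Cebpa, chr7:35119043-35119292, plus strand: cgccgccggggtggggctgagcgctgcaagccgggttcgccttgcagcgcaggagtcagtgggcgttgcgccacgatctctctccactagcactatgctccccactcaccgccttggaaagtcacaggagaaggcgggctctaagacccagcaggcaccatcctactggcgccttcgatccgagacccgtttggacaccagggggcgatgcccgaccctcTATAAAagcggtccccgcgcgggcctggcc
Foxa3, chr7:19023540-19023789, minus strand: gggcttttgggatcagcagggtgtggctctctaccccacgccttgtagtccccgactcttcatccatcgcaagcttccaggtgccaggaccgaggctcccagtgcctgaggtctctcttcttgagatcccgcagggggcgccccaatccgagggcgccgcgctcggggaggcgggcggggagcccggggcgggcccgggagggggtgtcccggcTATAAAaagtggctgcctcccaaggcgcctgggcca
Nr1i3, chr1:171213720-171213969, plus strand: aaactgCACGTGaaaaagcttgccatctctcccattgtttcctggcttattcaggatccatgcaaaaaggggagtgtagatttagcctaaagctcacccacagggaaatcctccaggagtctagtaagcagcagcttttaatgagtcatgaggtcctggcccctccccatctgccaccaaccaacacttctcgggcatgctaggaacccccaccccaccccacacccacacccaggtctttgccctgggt
Hnf4a, second start, chr2:163546905-163547154, plus strand: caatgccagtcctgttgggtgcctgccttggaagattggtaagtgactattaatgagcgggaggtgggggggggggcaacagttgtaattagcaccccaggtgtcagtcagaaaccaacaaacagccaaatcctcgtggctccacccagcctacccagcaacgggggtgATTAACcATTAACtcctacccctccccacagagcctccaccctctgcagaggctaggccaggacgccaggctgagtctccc
Cebpa lies at chr7:35119293-35121928, Foxa3 at chr7:19013283-19023539, Nr1i3 at chr1:171213934-171218845 and Hnf4a at chr2:163506811-163572907, so that the windows of Cebpa and Foxa3 end next to the first base of the gene and the second Hnf4a window lies inside the annotated span of the gene.

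The TATA box letters TATAAA began 30 bases before the Cebpa start and 36 bases before the Foxa3 start, on the strand of the gene in both. On either strand these letters stood in 12.4% of the 32851 promoter windows of the annotation, and on the gene strand at 25 to 40 bases before the start, a span chosen after the matches were seen, in 1.91%. Prox1 had the letters on the opposite strand, 34 bases before its first start. Matches to the HNF1 letters GTTAAT, on the opposite strand, began 81 and 74 bases before the second Hnf4a start and occurred in 6.43% of all windows. In the Nr1i3 window the E-box letters CACGTG, held by 6.02% of all windows, began 244 bases before the start, and the TEAD letters GGAATG, held by 12.6%, were found 58 bases before the second start of Nr5a2. The other motifs were those of HNF4 (CAAAGTCC, 1.2% of windows), FOXA (TGTTTAC, 3.17%), C/EBP (TTGCGNAA, 0.670%) and NR5A2 (TCAAGG, 12.5%), and none of the 8 was in the windows of Cebpb, Nr1i2 or the first start of Hnf4a. These matches describe letters and not bound sites, and the counts, read from the 3′ ends of transcripts, do not tell which start was used.

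The deposited table held 2989 control and 1524 tetYAP_4W barcodes with medians of 3117 and 4150 UMIs. Hepatocyte-like barcodes numbered 2555 and 664. They were not named by hepatocyte markers: after clustering without the 9 genes, they were the clusters in which no other class had 3 raised markers. Hepatocyte marker UMIs per barcode were 249 and 343 there and 193 to 312 in the macrophage-, endothelial-, T or NK-, B-, erythroid- and neutrophil or monocyte-like classes, so these markers did not separate the classes. Mitochondrial genes took 29.0% of hepatocyte-like UMIs in control and 55.5% in tetYAP_4W. Among the tetYAP_4W hepatocyte-like barcodes, 461 of 664 fell in a cluster with a median of 61.1% mitochondrial UMIs that was led by pancreatic acinar genes. Yap1 had 16.3 and 18.9 UMIs for every 1000000, and since the sources do not say whether transgene reads count to Yap1, this does not check the labels. The female-specific RNA Xist had 3 UMIs in control and 4859 in tetYAP_4W, while Y-linked genes had 716 and 0, so that sex and genotype cannot be told apart.

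In control, no single one of the 9 factors was told apart in the pooled hepatocyte-like barcodes from the free RNA that all barcodes of the library shared. Their sum was 580 counts per 1000000 UMIs (CPM; 564 to 597) in hepatocyte-like barcodes and 443 (312 to 611) in the 20 erythroid-, T or NK- and B-like barcodes pooled, which should lack the program and serve as the reference for free RNA. At least 1 member UMI was present in 81.6% of hepatocyte-like barcodes (exact interval 80.0 to 83.1) at a median depth of 3096 UMIs, and in 75% of the reference barcodes (50.9 to 91.3) at a median depth of 4048.5. When each barcode was thinned to 1000 UMIs these shares were 44.4% and 45.0%. None of the 9 members was 2-fold higher in hepatocyte-like than in reference barcodes, where 0.947% of 6230 genes were. Reference counts under 3 were set to 3. On that floor Foxa2, Foxa3, Nr1i2, Nr1i3, Prox1 and Nr5a2, each at 55.9 CPM or less in hepatocyte-like barcodes, could not be called 2-fold higher. The rule could therefore only have called Hnf4a, Cebpa or Cebpb. Hnf4a, with 778 and 5 UMIs, had a log2 ratio of 0.70 (−0.53 to 2.33), and the sum one of 0.39 (−0.08 to 0.90), or 0.54 (0.08 to 1.05) with non-mitochondrial UMIs as the total. For single members of the pooled class a difference from the background was not detectable on either scale, with 37 member UMIs behind the reference. The Malat1-rich cluster of 120 control barcodes was an exception within the class: its members summed to 947 CPM, a log2 ratio of 1.10 (0.60 to 1.63), and Nr1i3 had 59 UMIs there and 2 in the reference (interval 0.81 to 5.80), 1 of 4 members tested with an interval above 0, beside 21% of genes.

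The tetYAP_4W library had a larger reference of 216 barcodes, and some members stood above it when counts were scaled by UMI totals. The sum was 378 CPM (356 to 401) in hepatocyte-like barcodes and 300.1 (266 to 337) in the reference, a log2 ratio of 0.33 (0.14 to 0.52). A member UMI was present in 72.9% and 70.4% of barcodes, at median depths of 4063 and 4285 UMIs, and in 29.2% and 21.8% after thinning. 7 members reached 50 UMIs over both, and the interval lay above 0 for Hnf4a (0.88, 0.37 to 1.42), Foxa2 (1.34), Nr1i3 (1.03) and Prox1 (0.82), beside 11.2% of 4559 genes. It lay below 0 for Cebpb (−0.62, −0.95 to −0.29), as for 51.8% of all genes. These ratios depended on the total, since the hepatocyte-like barcodes held more mitochondrial RNA: with non-mitochondrial UMIs as the total, Cebpb turned to 0.10 (−0.22 to 0.43), the sum was at 1.06 (0.87 to 1.25), Hnf4a at 1.60 (1.09 to 2.15), and 6 of 7 members had an interval above 0, all but Cebpb, beside 32.3% of genes.

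The hepatocyte-like barcodes of tetYAP_4W were not uniform in these genes. In the cluster of 461 barcodes with the most mitochondrial RNA, the members summed to 258 CPM, a log2 ratio over the reference of −0.22, with Hnf4a at 0.46 (−0.09 to 1.04), Nr1i3 at 0.05 and Prox1 at 0.01, and none of 5 members tested had an interval above 0, beside 6.12% of genes. On non-mitochondrial totals the same cluster stood above the reference, with the sum at 0.75 (0.54 to 0.96), Hnf4a at 1.43 (0.88 to 2.01), Nr1i3 at 1.01 and Prox1 at 0.98, and 4 of 5 members had an interval above 0, beside 30.7% of genes. In the cluster of 125 barcodes led by sulfotransferase genes of the Sult2a family, Hnf4a reached 1.43 (0.78 to 2.08) and Cebpa 0.93, beside 27.8% of genes with an interval above 0. The highest sum was in a cluster of 78 barcodes that was rich in Malat1, where the members summed to 1008 CPM. Nr1i3 had 261 CPM there (82 UMIs) and 27.1 in the reference, a 9.65-fold difference. Foxa2 had 108 (34 UMIs) and 8.34, a 13-fold difference, and Prox1 and Nr1i2 had log2 ratios of 2.67 and 3.20, while Cebpb stood at 0.06. Foxa2 and Nr1i2 (15 and 5 UMIs) had under 50 UMIs in both together and were not among the 5 members tested, and 26.7% of genes had an interval above 0. Each cluster was found in 1 library, and on non-mitochondrial totals the member sums were 687, 769 and 1650 per 1000000 UMIs in the clusters of 461, 125 and 78 barcodes and 408 in the reference, so that the first and second differed less than on all UMIs. The part of the acinar genes was not tested.

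**Figure D1:**
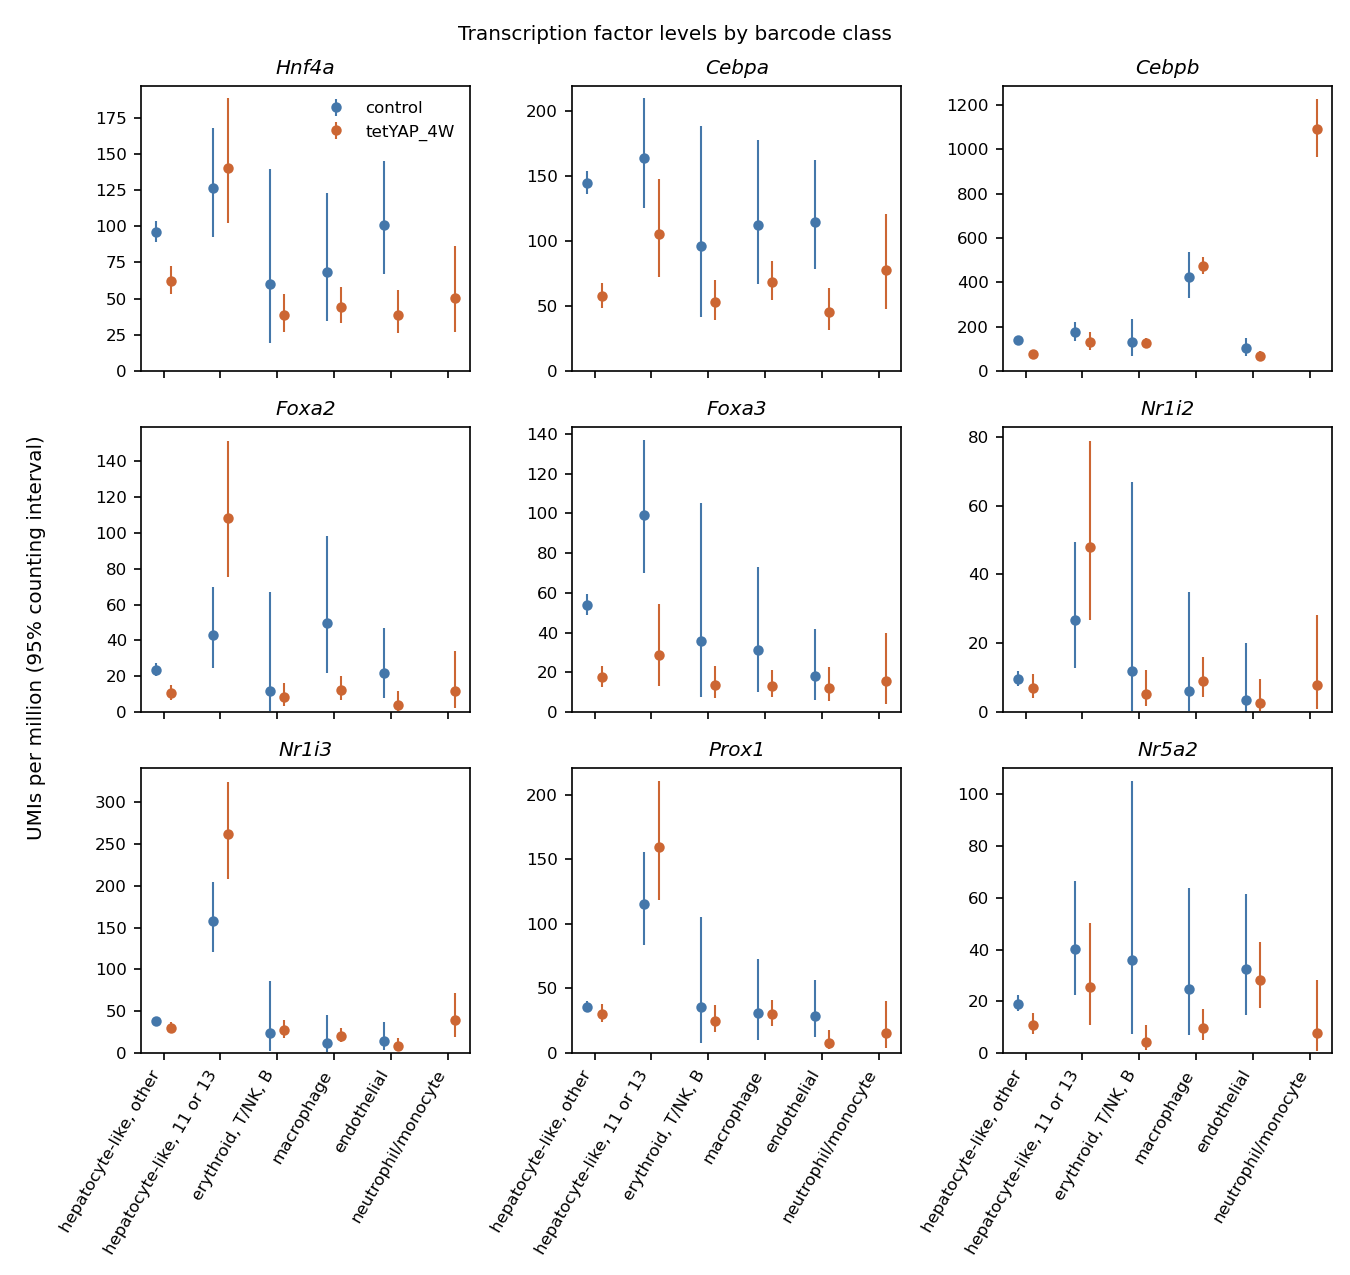
Level of each of the 9 transcription factors (CPM, y axis) by class of barcode (x axis), in control and tetYAP_4W, with points for the sum over the barcodes of a class and bars for the 95% counting interval. Hepatocyte-like barcodes are split into the cluster with the most Malat1 of each library (numbered 11 in control and 13 in tetYAP_4W) and the others. Cebpb stands out in neutrophil or monocyte-like barcodes (1091 CPM), and Nr1i3, Foxa2 and Prox1 stand out in the Malat1-rich cluster of tetYAP_4W.

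Cebpb was highest outside the hepatocyte-like classes, in myeloid cells, where C/EBPβ is known to act in differentiation and inflammatory gene expression. Neutrophil or monocyte-like barcodes of tetYAP_4W held 280 Cebpb UMIs, 1091 CPM, and 93.6% of the 47 barcodes had at least 1. Over the reference this was 8.73-fold, with a log2 ratio of 3.13 (2.81 to 3.45), and 20.4% of genes had an interval above 0. Macrophage-like barcodes had 473 CPM in tetYAP_4W (585 UMIs) and 424 in control (68 UMIs), log2 ratios over the reference of 1.92 (1.63 to 2.21) and 1.69 (0.76 to 2.76), beside 28.1% and 21.1% of genes with an interval above 0. Within the macrophage-like barcodes of tetYAP_4W the 2 clusters differed, at 828 and 200 CPM. Cebpb made up 69.6% of member UMIs in the macrophage-like and 82.8% in the neutrophil or monocyte-like class of tetYAP_4W. The control library held 0 neutrophil or monocyte-like barcodes, so its level in that class was not compared.

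Nr5a2 and Hnf4a also stood above the reference in some barcodes that were not named hepatocyte-like. In an unnamed cluster of 180 tetYAP_4W barcodes Hnf4a had 71.8 CPM (46 UMIs) and the reference 38.6 (37 UMIs), a log2 ratio of 0.90 (0.24 to 1.56), beside 15.5% of genes with an interval above 0, and Nr5a2 had 14 UMIs there. That cluster had 8.51 endothelial and 4.85 stellate or mesenchymal marker UMIs per barcode. At Leiden resolution 1.2 a cluster of 147 tetYAP_4W barcodes with 9.90 endothelial marker UMIs per barcode was called hepatocyte-like, and 32 fell in a stellate or mesenchymal-like one. The unnamed cluster is therefore not shown to lie outside the hepatocytes. Nr5a2 was further seen in the endothelial-like barcodes of tetYAP_4W. It had 28.1 CPM there (21 UMIs) and 4.17 in the reference (4 UMIs), a log2 ratio of 2.75 (1.19 to 4.76), on fewer than the 50 UMIs required of a called gene, and 39.7% of genes had an interval above 0. In control it was not above it, at 32.3 CPM (9 UMIs) in endothelial-like and 35.9 (3 UMIs) in reference barcodes. In the same tetYAP_4W barcodes Cebpb (−0.90) lay below the reference, and 16.5% of all genes had an interval below 0. Nr1i3 and Prox1 had 6 UMIs each there, too few to be tested.

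The comparison of the libraries asked how the level of each factor in hepatocyte-like barcodes differed between tetYAP_4W and control. No single member was told apart from free RNA in the pooled control barcodes. The part of free RNA in these ratios was not tested. On all UMIs the members split: Cebpa and Foxa3 were more than 2-fold lower in tetYAP_4W, Hnf4a, Cebpb and Nr5a2 were lower by less, and Nr1i3 was higher. 2 of 9 members were 2-fold lower, beside 22.6% of 7196 genes, and 0 were 2-fold higher, beside 7.35%. The interval lay below 0 for 5 of 9, beside 44% of genes. The median log2 ratio of all genes was −0.43, that of the members was −0.46, and 5 of 9 members lay below the median of all genes. Without the cluster led by acinar genes, which holds 461 of the 664 tetYAP_4W barcodes, 0 members were 2-fold lower and 3 were higher, and the sum of the members turned from −0.62 to 0.27, Hnf4a to 0.28 and Nr5a2 to 0.27. The share of all genes past 2-fold was not computed without that cluster, so these counts have no background beside them. On non-mitochondrial totals of the whole class, 3.85% of all genes were 2-fold lower and 19.6% higher. Because the tetYAP_4W barcodes held more mitochondrial RNA, each ratio is also given with non-mitochondrial UMIs as the total, a scale on which the median of all genes was 0.24.

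Hnf4a had 778 UMIs in control and 205 in tetYAP_4W, or 97.5 and 70.8 CPM. The log2 ratio was −0.46 (−0.69 to −0.24), and on the non-mitochondrial scale it turned to 0.21 (−0.01 to 0.44), close to the median of all genes on both scales. Nr5a2 went from 20.05 to 12.4 CPM (160 and 36 UMIs), a log2 ratio of −0.69 (−1.25 to −0.16) that became −0.01 without mitochondrial genes.

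Cebpa had 1162 UMIs in control and 182 in tetYAP_4W, which is 146 and 62.9 CPM. Its log2 ratio of −1.21 (−1.45 to −0.99) stayed below 0 on the non-mitochondrial scale, at −0.54 (−0.77 to −0.31), where 16.9% of genes had an interval below 0. Cebpb, its paralog, went from 143 to 81.2 CPM (1144 and 235 UMIs), a log2 ratio of −0.82 (−1.03 to −0.62) that was −0.14 without mitochondrial genes. Over all barcodes of the libraries the Cebpb ratio turned positive, at 0.44, beside the 47 neutrophil or monocyte-like and 284 macrophage-like barcodes of tetYAP_4W and 0 and 43 in control.

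Foxa3 showed the lowest ratio of the 9. It had 446 UMIs in control and 54 in tetYAP_4W, or 55.9 and 18.6 CPM, with log2 ratios of −1.58 (−2.02 to −1.17) on all UMIs and −0.91 (−1.34 to −0.50) on non-mitochondrial UMIs. Foxa2 did not share this difference, with 195 and 61 UMIs, 24.4 and 21.1 CPM, and log2 ratios of −0.21 (−0.65 to 0.21) and 0.46 on these scales. In the 1572 control and 84 tetYAP_4W hepatocyte-like barcodes with at most 30% mitochondrial UMIs, Foxa3 was at −0.05 and Cebpa at −0.18 (−0.66 to 0.27), so that their low ratios did not hold in that small subset, in which Hnf4a was at 0.79.

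Nr1i3 was the 1 member with an interval above 0 on all UMIs, where 14.3% of genes had one. Its level was 43.5 CPM in control (347 UMIs) and 55.3 in tetYAP_4W (160 UMIs), a log2 ratio of 0.35 (0.07 to 0.62), or 1.02 (0.74 to 1.30) without mitochondrial genes. This ratio rested on the clusters with the most Malat1, of 120 control and 78 tetYAP_4W barcodes: without them it was −0.33, and that of Foxa2 was −1.17. The other xenobiotic receptor gene, Nr1i2, had 83 and 33 UMIs and a log2 ratio of 0.13 (−0.50 to 0.73), and Prox1 had 317 and 128 UMIs and one of 0.15 (−0.15 to 0.46). On the non-mitochondrial scale Nr1i2 and Prox1 were at 0.81 and 0.83, with intervals above 0 like 33.9% of genes.

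**Figure D2:**
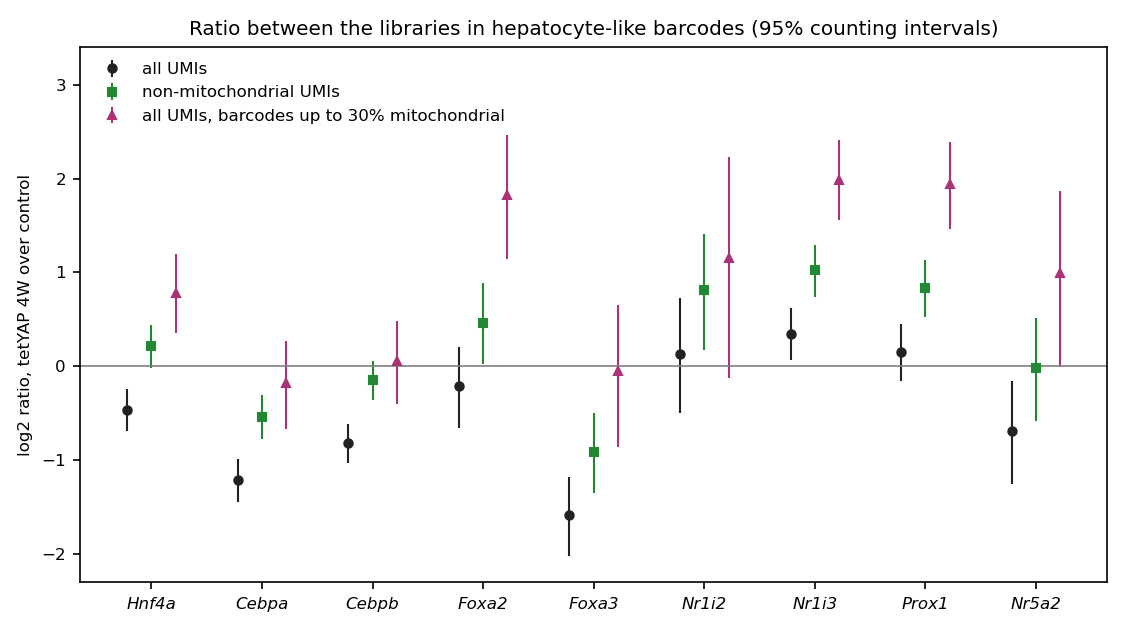
log2 ratio of tetYAP_4W over control for each member in hepatocyte-like barcodes (y axis), on the total-UMI, non-mitochondrial and low-mitochondrial scales, with bars for 95% counting intervals. Cebpa and Foxa3 lie below 0 on the first and second scales, Nr1i3 lies above 0 on all 3, and the remaining members shift with the scale.

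Ratios between members do not depend on how a library is scaled, and several of them differed between the libraries. Free RNA was not subtracted from them, and in control the share of Foxa3 in its pair with Foxa2 was also 69.6% over all barcodes. Foxa3 made up 69.6% of the UMIs of Foxa3 and Foxa2 in control and 47.0% in tetYAP_4W, a log2 ratio of ratios of −1.37 (−1.95 to −0.79). Against Hnf4a, Foxa3 went from 36.4% to 20.8% of the pair, a log2 ratio of −1.12 (−1.59 to −0.66), and Cebpa from 59.9% to 47.0%, one of −0.75 (−1.07 to −0.43). Both were lower relative to Hnf4a, whose own ratio was close to that of the median gene.

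The shares of Prox1 and Nr1i3 differed in the other direction. Prox1, which can repress HNF4A target genes, took 28.9% of the UMIs of Prox1 and Hnf4a in control and 38.4% in tetYAP_4W, a log2 ratio of ratios of 0.62 (0.25 to 0.99), and Nr1i3 against Hnf4a went from 30.8% to 43.8% (0.81, 0.46 to 1.16). Cebpb went from 49.6% to 56.4% of the UMIs of the C/EBP pair, 0.39 (0.09 to 0.69). Nr1i3 within Nr1i3 and Nr1i2 (80.7% and 82.9%) and Nr5a2 within Nr5a2 and Hnf4a (17.1% and 14.9%) had intervals of the log2 ratio that held 0, of −0.43 to 0.86 and −0.79 to 0.34. The ratios of Cebpa, Foxa3 and Nr1i3 to Hnf4a were added after the counts had been seen. In barcodes with at most 30% mitochondrial UMIs the log2 values were −1.88 for Foxa3 over Foxa2, −0.96 for Cebpa over Hnf4a, −0.84 (−1.65 to −0.03) for Foxa3 over Hnf4a, 1.15 for Prox1 over Hnf4a and 1.2 for Nr1i3 over Hnf4a, while Cebpb over Cebpa was 0.24 (−0.38 to 0.85). Most of the 25 Foxa2 UMIs of these tetYAP_4W barcodes were in Malat1-rich ones, defined below, against at most 6 of 114 in control. The subset thus also differed in its mix of Malat1 levels, and the part of that mix was not tested. In the Malat1-poor barcodes defined below, which are most of the class, Cebpa over Hnf4a (−0.64, −1.0 to −0.28), Foxa3 over Hnf4a (−1.0, −1.53 to −0.48) and Cebpb over Cebpa (0.41, 0.07 to 0.75) kept intervals off 0. There Foxa3 over Foxa2 was −0.52 (−1.27 to 0.22), Prox1 over Hnf4a 0.43 (−0.01 to 0.87) and Nr1i3 over Hnf4a 0.30 (−0.15 to 0.75), all with intervals that held 0.

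**Figure D3:**
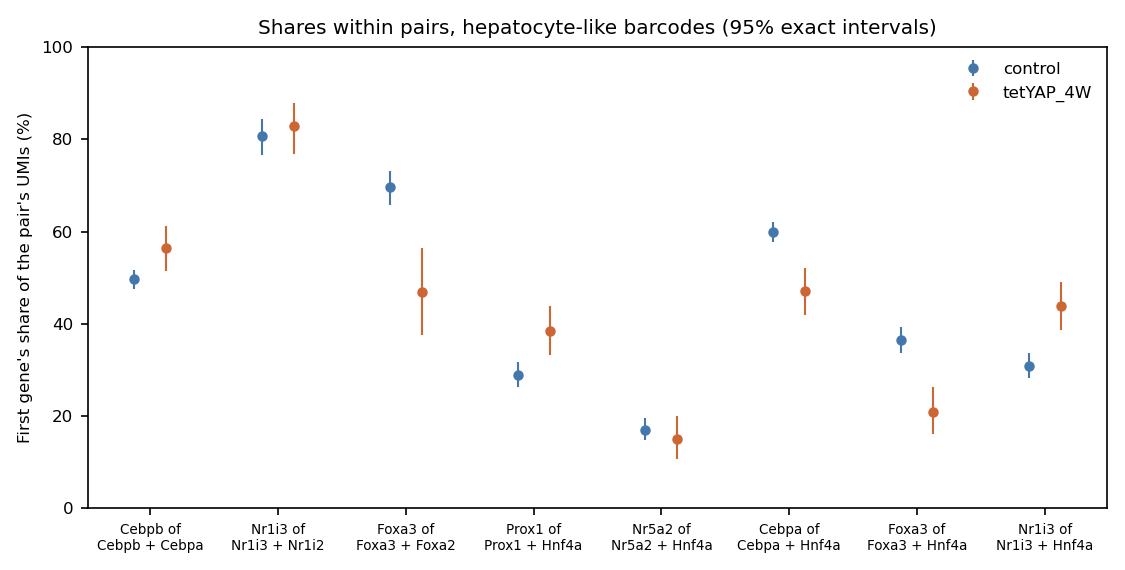
Share of the first gene in the summed UMIs of each pair of members (percent, y axis) in hepatocyte-like barcodes of control and tetYAP_4W, with exact 95% intervals. The share of Foxa3 is lower in tetYAP_4W (69.6% and 47.0% against Foxa2), as is that of Cebpa against Hnf4a, while those of Prox1 and Nr1i3 against Hnf4a are higher.

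Malat1 was low in most hepatocyte-like barcodes. The cluster with the most Malat1 had a median of 22.5 Malat1 UMIs per 10000 non-mitochondrial UMIs in control and 113 in tetYAP_4W. In the 5 other hepatocyte-like clusters the median was between 7.48 and 11.8, near the 8.47 of erythroid-like barcodes and far below the 149 of B-like or 91.3 of T or NK-like ones. When hepatocyte-like barcodes of 1 library were ranked by this level, the lower and upper tertiles of control differed little in the members: Cebpb alone had an interval off 0, at −0.23 (−0.45 to −0.02), beside 5.27% of genes with an interval below 0. The medians there were 0 and 3 Malat1 UMIs, and 658 barcodes lay within 1 of the lower boundary on the scale of Malat1 UMIs per 10000, so the ranking was coarse. In tetYAP_4W, 3 of 6 members with enough UMIs were over 2-fold higher in the upper tertile, beside 12.7% of genes: Nr1i3 (26 and 98 UMIs, log2 ratio 2.0, 1.36 to 2.68), Foxa2 (11 and 39 UMIs, 1.91) and Prox1 (32 and 64 UMIs, 1.09).

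**Figure D4:**
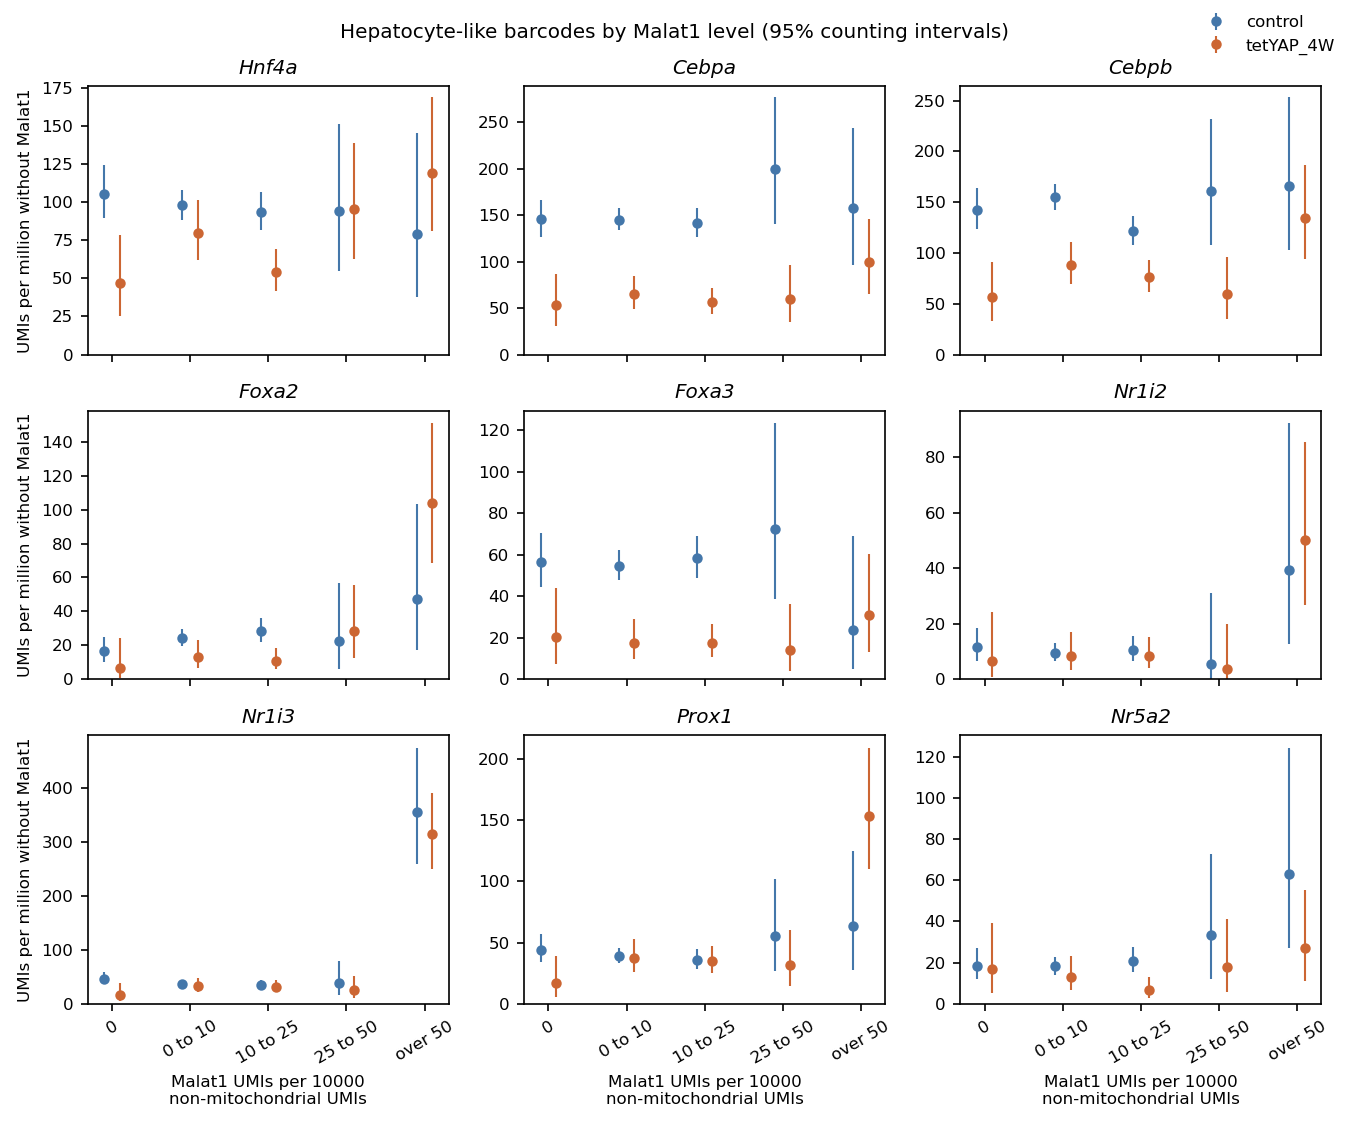
Level of each member (CPM of totals without Malat1, y axis) in hepatocyte-like barcodes binned by Malat1 UMIs per 10000 non-mitochondrial UMIs (x axis), for control and tetYAP_4W, with 95% counting intervals. Nr1i3 is between 16.7 and 46.4 in the 4 lower bins and at 355 and 315 in the highest bin.

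The difference lay in a small set of barcodes at the top of the range. Above 50 Malat1 UMIs per 10000, a boundary drawn after the data had been seen, there were 38 control and 66 tetYAP_4W barcodes, and they were set against the 2458 and 528 barcodes with 25 or fewer. Nr1i3 had 355 CPM in the Malat1-rich and 38.5 in the Malat1-poor barcodes of control, and 315 and 30.3 in tetYAP_4W. That is 9.23-fold and 10.4-fold, with log2 ratios of 3.21 (2.72 to 3.66) and 3.38 (2.90 to 3.86), while the interval lay above 0 for 16.2% and 38.8% of all genes and their medians were 0.79 and 0.52. The control value came from 45 UMIs in 12 of 38 barcodes, at most 7 in 1 barcode, and the tetYAP_4W value from 82 UMIs in 30 of 66, at most 8. Nr1i3 was thus found in 31.6% and 45.5% of Malat1-rich and in 11.5% and 12.9% of Malat1-poor barcodes, at median depths of 3211 and 3786.5 against 3096.5 and 4108 UMIs. By Malat1 level its control values were 46.4, 37.3, 35.7, 38.9 and 355 CPM from the lowest to the highest bin, and those of tetYAP_4W were 16.7, 33.0, 31.7, 24.8 and 315.

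The Nr1i3 difference was as large in barcodes with at most 30% mitochondrial UMIs, at 3.44 and 3.47, and was 3.42 and 2.86 on non-mitochondrial totals. Without the barcode that held the most Nr1i3 UMIs it was 3.02 and 3.27. The Malat1-rich barcodes held less of the hepatocyte marker sum than every other bin, 55366 against at least 73558 CPM in control and 62220 against at least 73608 in tetYAP_4W. Their median mitochondrial share was 51.4% in control and 32.0% in tetYAP_4W, against 28.1% and 58.6% in Malat1-poor ones. Near the upper boundary, within 10 on the same scale, there were 11 and 20 barcodes. All 38 Malat1-rich control barcodes were in 1 cluster of 120, and 61 of the 66 from tetYAP_4W were in the cluster of 78.

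The other members differed in how they followed Malat1. In tetYAP_4W, Foxa2 had 11.1 CPM in Malat1-poor and 104 in Malat1-rich barcodes (27 UMIs), a log2 ratio of 3.23 (2.39 to 4.06), and Prox1 33.7 and 154, one of 2.19 (1.60 to 2.76). Hnf4a (0.93, 0.32 to 1.49), Cebpb (0.79) and Cebpa (0.75) were nearer to the median of all genes, and Foxa3 at 0.78 (−0.52 to 1.89) was not told from 0. Nr1i2 (13 and 19 UMIs, 2.62) and Nr5a2 (7 and 24 UMIs, 1.39) had under 50 UMIs. In barcodes with at most 30% mitochondrial UMIs, Foxa2 was at 2.91 (18 and 3 UMIs, 1.14 to 5.32), Prox1 at 1.06 (0.17 to 1.99), Hnf4a at 0.03 and Cebpa at −0.78 (−1.85 to 0.22), and the sum was at 0.77. In control, where only 38 barcodes were rich, the intervals lay above 0 for Nr1i2 (1.97, 0.31 to 3.26) and Nr5a2 (1.73, 0.49 to 2.75) besides Nr1i3, while Foxa2 was at 0.97, Prox1 at 0.70, Cebpb at 0.22, Cebpa at 0.13, Hnf4a at −0.31 and Foxa3, on 3 UMIs, at −1.24 (−3.53 to 0.31). The sum of the 9 members had log2 ratios of 0.80 in control and 1.73 in tetYAP_4W. Of the other liver transcription factors, 20 of 34 tested were over 2-fold higher in Malat1-rich barcodes of control and 14 of 17 in tetYAP_4W, where 42.4% and 32.9% of all genes were, and 8 of 11 and 3 of 4 partners and coregulators were. The control counts include genes lifted by the floor of 3 UMIs in the 38 rich barcodes. An interval above 0 was found for 13 of 34 and 16 of 17 of these factors, beside 16.2% and 38.8% of genes. For partners and coregulators it was found for 3 of 11 and 3 of 4.

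**Figure D5:**
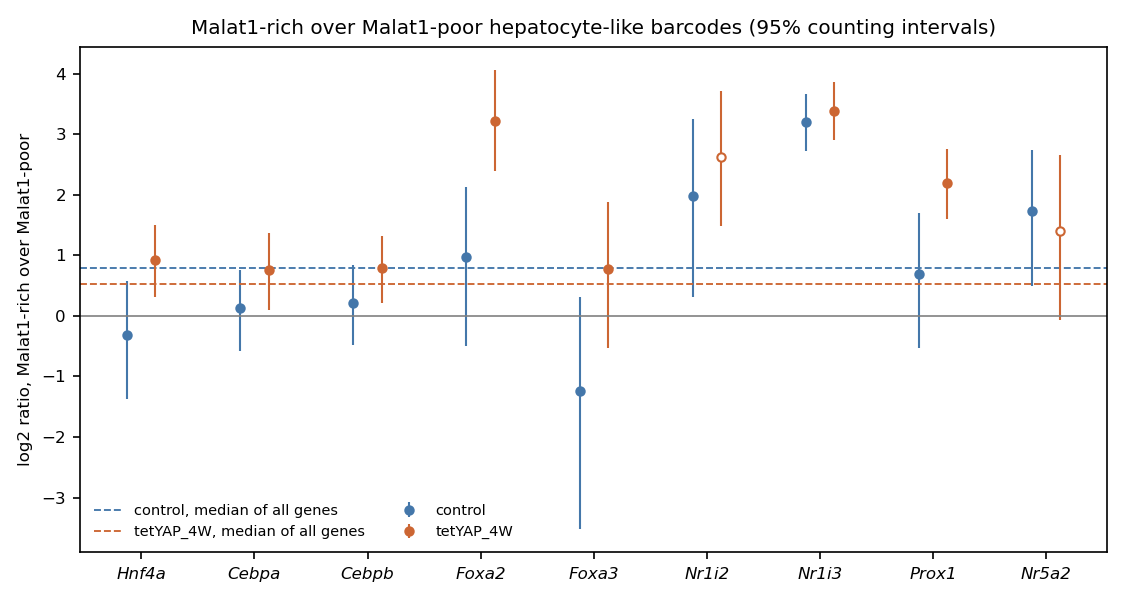
log2 ratio of Malat1-rich over Malat1-poor hepatocyte-like barcodes for each member (y axis) in control and tetYAP_4W, with 95% counting intervals, open circles for members under 50 UMIs in all and dashed lines for the median of all genes. Nr1i3 lies above 3 in both libraries, Foxa2 and Prox1 are above 2 in tetYAP_4W, and Cebpa lies under 1 in both.

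Between the libraries, the members were compared again at matched Malat1 level. In Malat1-rich barcodes the sum of the members differed by a log2 ratio of 0.06 between tetYAP_4W and control, and Nr1i3 by −0.17 (−0.72 to 0.38). Prox1, with 40 and 8 UMIs, was higher in tetYAP_4W by 1.28 (0.17 to 2.59), on fewer than 50 UMIs. In Malat1-poor barcodes and on non-mitochondrial totals, Cebpa (−0.55) and Foxa3 (−0.91) had intervals below 0, as did 18.6% of genes, Prox1 had one above 0 (0.53, 0.15 to 0.89), as did 22.9%, and Hnf4a was at 0.09. Foxa3 made up 69.9% and 61.8% of the Foxa3 and Foxa2 UMIs in Malat1-poor barcodes of control and tetYAP_4W, and 33.3% and 22.9% in Malat1-rich ones. The control share in Malat1-rich barcodes came from 3 Foxa3 and 6 Foxa2 UMIs. Its interval of 7.5 to 70.1 held the Malat1-poor share.

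Other genes of the same regulatory layer lay on both sides of the median. Of 42 other liver transcription factors, 36 had at least 50 UMIs, and 6 were 2-fold lower and 3 higher in tetYAP_4W hepatocyte-like barcodes, beside 22.6% and 7.35% of all genes. Their median log2 ratio was −0.49, beside −0.43 for all genes. The lowest were Bcl6 (−2.23), a repressor that responds to growth hormone signalling, Hhex (−1.47), a homeobox factor of liver development, and Klf9 (−1.40), a target of glucocorticoid signalling. The highest were the circadian factor Tef (2.21), the lipogenic factor Srebf1 (1.39) and the carbohydrate sensor Mlxipl (1.05), and Mlxipl and Tef were also high in Malat1-rich barcodes. As the libraries differ in sex, none of these ratios, low or high, can be assigned to genotype. Of 12 partners and coregulators, 11 were counted, with a median of −0.17 and 1 that was 2-fold lower, Nr0b2 (−1.47), which encodes the repressor SHP that binds NR5A2 and HNF4A. Rxra, the partner of PXR and CAR, was at −0.60, Ncoa2 at −0.71, and Ep300 and Crebbp were at 0.42 and 0.13.

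Known target genes were described by the same ratios, from lists that share some genes, and again beside 22.6% of all genes 2-fold lower and 7.35% higher. Of 15 HNF4A targets, 6 were 2-fold lower and 0 higher, with a median of −0.49. Cyp8b1 (−1.71), Ttr (−1.68) and G6pc (−1.56) were the lowest and Cyp7a1 (0.38), Apob (0.36) and Apoa4 (0.17) the highest. Of 9 metabolic C/EBP targets, 5 were 2-fold lower and 0 higher, with a median of −1.02. They included the iron hormone gene Hamp (−2.20) and the urea cycle gene Otc (−1.33), besides G6pc, while Adh1 (−0.58), Pck1 (−0.32) and Alb (0.71) were the highest. Among the acute phase targets of C/EBP, 7 of 8 were counted with a median of 1.08, and 4 were 2-fold higher and 1 lower. Saa2 (1.89), Orm2 (1.5) and Hp (1.17) stood at the top and Orm1 (−1.10), Crp (−0.45) and Fgb (−0.17) at the bottom of that list.

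Of the 6 FOXA targets, 3 were 2-fold lower (Ttr, G6pc and Tat, the last at −1.02) and Igfbp1 was higher (1.34), with Slc2a2 at 0.32 and Pck1 as above, for a median of −0.67. PXR targets had a median of 0.32 over 7 of 9 genes, of which 1 was 2-fold lower and 2 were higher. The glutathione transferase Gsta1 (−1.22), Cyp3a11 (−0.31) and Cyp3a13 (−0.22) were the lowest, and the organic anion transporter Slco1a4 (2.63), Por (1.37) and Alas1 (0.74) the highest. CAR targets had a median of 1.18 over 5 of 9 genes, 3 of them 2-fold higher and 0 lower: Cyp2b9 went from 1 to 277 UMIs (interval of the log2 ratio 7.09 to 14.89) and Abcc3 was at 1.18, with Por and Alas1 as above and Cyp2c29 at −0.62. Cyp2b9 is known to be higher in female than in male mouse liver, and sex and genotype cannot be told apart here. The 7 NR5A2 targets had a median of 0.02, with 2 that were 2-fold lower, Cyp8b1 and Nr0b2, Abcg8 at −0.61, and Abcg5 (0.43), Scarb1 (0.43) and Cyp7a1 at the top. The list medians of HNF4A and FOXA targets, other factors and coregulators turned positive on non-mitochondrial totals, at 0.18, 0.01, 0.19 and 0.51, beside 0.24 for all genes.

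Across 14 units, each a Malat1 tertile of the hepatocyte-like barcodes or another class of at least 20 barcodes in 1 library, the genes whose level was most like the sum of the 9 members were Pid1 (Pearson r = 0.900), Rnf149 (0.881), Gpx1 (0.851), Prdx5 (0.840) and Ctsz (0.834), of 2312 genes. These correlations are descriptions over units that share a library and its free RNA, and the sum was highest in the neutrophil or monocyte-like class, where 82.8% of it was Cebpb.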

How the data were processed

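Hepatocytes of 2 mouse liver preparations were profiled by 10x Genomics 3′ single cell RNA-seq (version 3 chemistry). The authors aligned reads to mm10 and counted UMIs with Cell Ranger, took 3000 barcodes per condition and left out barcodes above 7500 UMIs. The deposited table holds raw UMI counts per gene and barcode, and all its columns were mapped to the libraries. Depth was 9509885 UMIs in control and 6777210 in tetYAP_4W, and 0 barcode sequences were shared.

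Barcodes were clustered with scanpy 1.11.5 (2000 variable genes, 20 components, 15 neighbours, Leiden resolution 0.8) without the members, the other listed factors, Malat1 and Neat1. A class other than the hepatocyte-like one was named where at least 3 of its markers had 10 UMIs and were 3-fold above the other clusters. It also needed at least 5 marker UMIs per barcode, a rule set after the data had been seen. Clusters in which no other class had 3 such markers were called hepatocyte-like, without use of the hepatocyte markers. No doublet caller was run. Levels are counts per 1000000 UMIs (CPM), summed over barcodes, with exact Poisson intervals, and shares of barcodes or UMIs have exact Clopper-Pearson intervals (scipy 1.17.1). Ratios between groups are log2 ratios of these levels with exact conditional binomial intervals, with counts under 3 set to 3, for genes with at least 50 UMIs in both groups together, and intervals of ratios between members are of the same counts. Malat1 was left out of totals in comparisons by Malat1 level. The ratio script was tested on simulated data. Alternatives included non-mitochondrial totals, edgeR 4.0.16 TMM factors (trimmed mean of M values), thinning to 1000 UMIs, other resolutions and other Malat1 boundaries. The members and gene lists were chosen with earlier results of these data known. Named genes are the members, the 3 highest and 3 lowest of each list (1 of them is not reported here), Malat1, and the 5 genes most like the sum of the members by Pearson correlation of log2(CPM + 1) among genes with at least 500 UMIs.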

Additional observations from a re-analysis of the deposited data

Results flagged for a closer look

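3 members pointed in opposite directions in the 2 libraries when hepatocyte-like barcodes were compared by Malat1 level, with at least 1 interval off 0. The difference between the libraries was not tested, since each has 1 sample. Cebpb in the upper over the lower Malat1 tertile had a log2 ratio of −0.23 (−0.45 to −0.02) in control and 0.03 (−0.44 to 0.50) in tetYAP_4W, a difference of 0.26. Prox1 in the same comparison was at −0.20 (−0.59 to 0.19) in control and 1.09 (0.45 to 1.75) in tetYAP_4W, a difference of 1.28. Hnf4a in Malat1-rich over Malat1-poor barcodes was at −0.31 (−1.38 to 0.58) in control and 0.93 (0.32 to 1.49) in tetYAP_4W, a difference of 1.24. These are ratios on all UMIs. The median mitochondrial share was 51.4% in rich and 28.1% in poor barcodes of control, and 32.0% and 58.6% in tetYAP_4W. On non-mitochondrial totals, Hnf4a in control was at 128 CPM in Malat1-rich barcodes and 132 to 149 in the bins that make up the poor ones. In tetYAP_4W it was at 194 and 120 to 178. The part of mitochondrial RNA in the difference was not tested.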

How the results depend on the processing

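All values are log2 ratios unless a count is named, and of 529 recomputed values for 132 results, 403 stayed within the counting interval or close to the count, 103 moved further and 23 changed sign. No paired analysis was possible because each genotype has 1 library, and for the same reason leaving out a library was not possible.

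The ratio between the libraries depended on mitochondrial RNA and on the acinar cluster, which overlap and were not separated. For tetYAP_4W over control in hepatocyte-like barcodes, the sum of the members went from −0.62 to 0.0564 on totals without mitochondrial genes, to −0.0308 when the 50 most abundant genes were also left out, to 0.75 in barcodes with at most 30% mitochondrial UMIs, to −0.47 with TMM factors, and to −0.39 over all barcodes. After the data had been seen, it was also computed without the acinar cluster (0.27) and without the cluster with the most Malat1 of each library (−0.90). The count of members 2-fold lower, 2 on all UMIs, was 0 on both totals without mitochondrial genes, in the barcodes with at most 30% mitochondrial UMIs and without the acinar cluster, and the count 2-fold higher went from 0 to 1 on non-mitochondrial totals, 4 in those barcodes and 3 without that cluster. Of all genes, 22.6% were 2-fold lower and 7.35% higher on all UMIs, and 3.85% and 19.6% on non-mitochondrial totals. For the other settings these shares were not computed. Hnf4a changed sign to 0.21 and 0.13 on these totals, 0.79 in low-mitochondrial barcodes and 0.28 without the acinar cluster. Nr5a2 changed to 1.0 in low-mitochondrial barcodes and 0.27 without that cluster, Cebpb to 0.0584 in low-mitochondrial barcodes and 0.44 over all barcodes, and Nr1i3 to −0.13 over all barcodes and −0.33 without the clusters with the most Malat1. On non-mitochondrial totals the list medians became 0.19 for other liver transcription factors, 0.51 for coregulators, 0.18 for HNF4A targets, 0.00743 for FOXA targets and 1.86 for CAR targets.

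By Malat1 level, the sum in upper over lower tertiles of tetYAP_4W went from 0.61 to 0.96 when Malat1 was taken per all UMIs. In Malat1-rich over Malat1-poor barcodes, the sum in tetYAP_4W was 1.21 on non-mitochondrial totals and 0.77 in low-mitochondrial barcodes, where Cebpa turned to −0.78, and the sum in control was 1.06. The 1 member 2-fold lower in control became 0 in low-mitochondrial barcodes and with clusters in place of the boundaries, and the 3 members 2-fold higher in tetYAP_4W, also between tertiles, became 1 in low-mitochondrial barcodes. At the boundaries 5.2% of all genes were 2-fold lower in control and 32.9% were 2-fold higher in tetYAP_4W, and 12.7% were higher between its tertiles. For low-mitochondrial barcodes these shares were not computed. At matched Malat1 level, the lower tertile had a sum of −0.0498 on non-mitochondrial totals, with 0 members 2-fold lower in place of 1, 3 at the fixed boundaries and 2 when barcodes were split in 2 at the median. In the upper tertile the sum of −0.45 turned to 0.19 on non-mitochondrial totals, with 0 members 2-fold lower in place of 3 and 2 higher, and at the fixed boundaries it turned to 0.0551, with 0 lower, Foxa3 at 0.38 and Nr1i3 at −0.17. Of all genes, 32.2% were 2-fold lower in the lower tertile and 25.7% in the upper one. At the fixed boundaries the shares were 33.4% in Malat1-poor and 7.79% in Malat1-rich barcodes. For the other settings at matched level they were not computed.

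Over the reference, on non-mitochondrial totals, the sum in tetYAP_4W hepatocyte-like barcodes went from 0.33 to 1.06 and Cebpb turned to 0.10. The count 2-fold higher went from 2 to 5 of 7 members tested, while the share of all genes went from 3.86% to 18.5%. Of the ratios between members, Cebpb over Cebpa was 1.64 over all barcodes, Foxa3 over Foxa2 and over Hnf4a were −2.31 and −1.71 in the upper Malat1 tertile, and Prox1 and Nr1i3 over Hnf4a were 1.15 and 1.2 in low-mitochondrial barcodes. In Malat1-poor barcodes Foxa3 over Foxa2 was −0.52 and Nr1i3 over Hnf4a 0.30, which was 1.28 without the acinar cluster. Cebpb in neutrophil or monocyte-like barcodes was 957 CPM after thinning. The cause of these changes was not tested beyond the construction of each alternative. The Malat1 boundaries, the clusters left out, the ratios to Hnf4a and the non-mitochondrial totals for the reference were chosen after seeing the data. Depth limits the reference in control (20 barcodes), Nr1i2 and Nr5a2 in Malat1-rich barcodes, and every statement on genotype, for which 1 library each allows no test.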
